A study of Mus musculus with 10 samples.

Results

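The genes described here are 10 genes of the response to low oxygen and of sugar breakdown: Hif1a, Egln3, Slc2a1, Hk2, Pgk1, Pfkfb3, Pdk1, Bnip3, Adm and Car9. They were taken by gene symbol from the array's annotation, and all 10 were found among 19505 named genes, each with 1 probe set. Whole back skin of C57BL/6J mice, aged 9 weeks at the start, was measured on 10 arrays with 1 array per sample. The 4 expanded samples came from skin over a silicone expander that had been enlarged step by step with PBS (phosphate-buffered saline), and the 4 non-expanded samples from skin over an implanted expander that was given no PBS. Each arm had 1 array at days 0, 7, 14 and 21 after filling was complete. The other 2 samples came from wild-type mice of the same strain without surgery, 1 with hair in anagen (the growth stage) and 1 in telogen (the resting stage). The non-expanded mice carried the implant too, so they differ from the expanded mice by the filling, and from the mice without surgery by at least the implant and its operation. The samples without surgery also have no day, and a hair stage is named only for them. Time and hair stage therefore cannot be told apart from surgery in that comparison.

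HIF, the hypoxia-inducible factor, is a pair of proteins of which one, HIF1A, is made all the time and destroyed while oxygen is plentiful. Prolyl hydroxylases of the EGLN family mark it for that destruction. When oxygen runs short, HIF1A persists, binds DNA at sites with the core letters ACGTG or GCGTG, and switches on genes for glucose uptake, glycolysis and blood vessel growth. Skin is a tissue where this system is active in daily life, since the epidermis has no vessels of its own and hair follicles and healing wounds use much glucose.

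Levels are the deposited values, read as log2 signals from their range because the log base is not given. On that reading 1 unit is a 2-fold difference. A level can be compared between arrays for 1 gene but not between genes. The background probe sets had a median of 5.46. Differences between expanded and non-expanded skin were fitted with limma over the 13653 genes that passed a filter on low mean level, with the day as a block, and adjusted p means the Benjamini-Hochberg value over all of them. The labels do not tell if a sample came from 1 animal or several, so the p-values measure only the spread between these arrays. Of the 10 genes, 9 passed the filter. Car9 did not, and its values are given without a test. In bulk skin, fewer cells of a type and less RNA per cell cannot be told apart.

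Marker genes of several cell types differed between the arrays. Summed over 15 skeletal muscle genes, the log2 level was 19.21 to 21.32 in expanded skin, 21.08 to 21.60 in non-expanded skin, 19.32 in anagen and 21.51 in telogen. The mean of 12 hair shaft and inner root sheath genes set 1 expanded array apart: it was 12.72 at day 7 and 4.88 to 6.45 on the other expanded days. It was 4.66 to 8.26 in non-expanded skin, 16.87 in anagen and 6.75 in telogen. The mean of 15 immediate early genes was 11.00 to 13.38 in expanded and 10.15 to 11.66 in non-expanded skin, with 15 of 15 higher in expanded skin. The sum of 9 macrophage genes was 16.73 to 18.10 in expanded skin, 16.96 to 19.01 in non-expanded skin, 13.46 in anagen and 15.44 in telogen. Basal epidermal genes, 8 in all, summed to 18.34 to 18.80 in expanded and 17.51 to 18.39 in non-expanded skin.

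**Figure D1:**
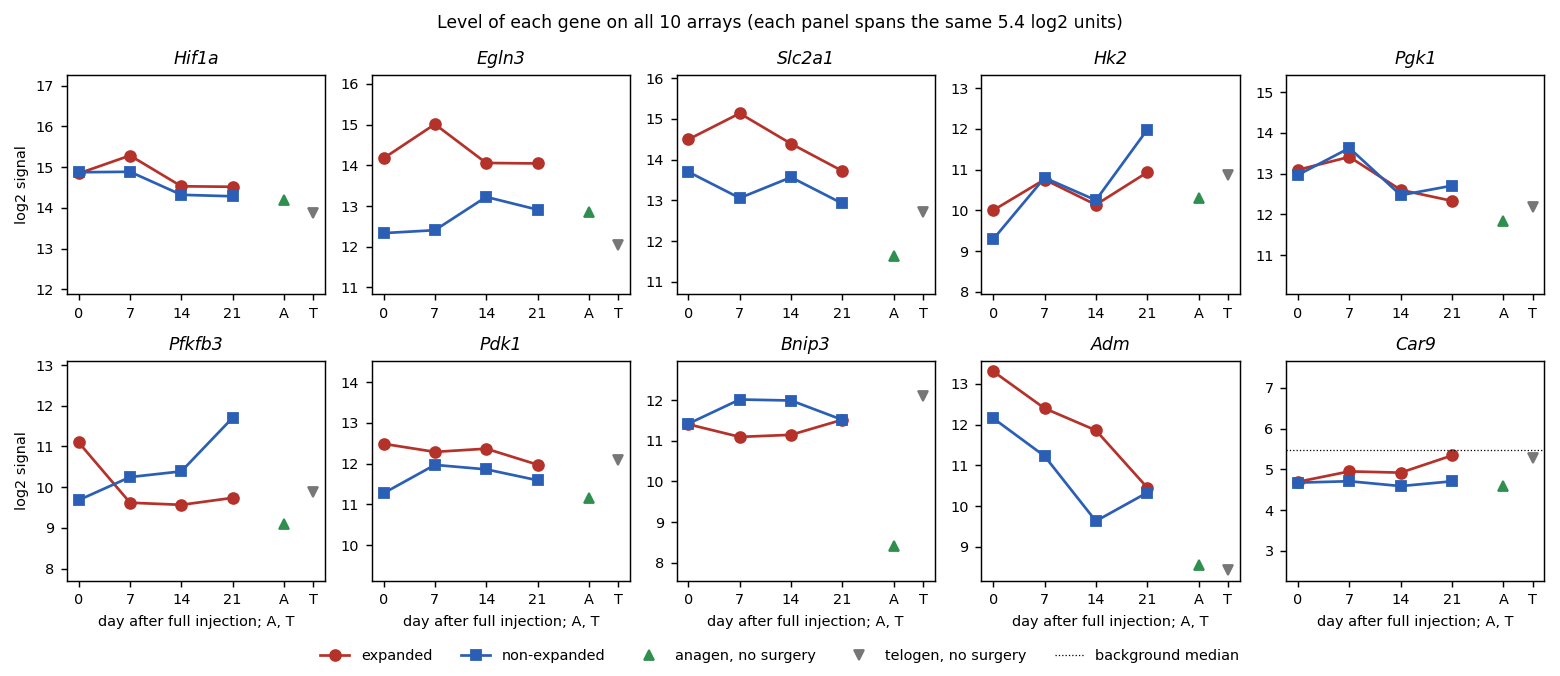
Log2 signal of each of the 10 genes on all 10 arrays, by day after full injection, with expanded skin as circles, non-expanded skin as squares and the arrays without surgery (A, anagen; T, telogen) on the right; each point is 1 array and each panel spans the same number of log2 units. Egln3, Slc2a1 and Pdk1 were higher on all 4 expanded arrays than on any non-expanded array, Adm was lower at day 21 than at day 0 in both arms, Bnip3 was lowest in anagen, and Car9 lay under the dotted background median of 5.46 on all 10 arrays.

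In expanded skin, Egln3, Slc2a1 and Pdk1 were higher than in non-expanded skin with no overlap between the arms, and Adm was higher on every day although its arms overlapped. No gene of the 10 passed the test over all genes. Across the array, 0 of 13653 genes passed an adjusted p of 0.05 in limma, with 1202 at an unadjusted p under 0.05 and a lowest adjusted p of 0.221. Of the 9, 4 had an unadjusted p under 0.05 with higher levels in expanded skin (Egln3, Slc2a1, Adm and Pdk1), where 4.83% of all genes did, and 0 of the 9 tested in the other direction, where 3.98% did. Egln3, Slc2a1 and Pdk1, 3 of the 9, had all 4 expanded arrays above all 4 non-expanded arrays, against 2.97% of all genes, and 0 had them all below (1.87%). Higher in expanded skin on all 4 days were 4 of the 9, against 9.18% of all genes, and lower on all 4 days were 0 (8.1%). The median of the 9 differences was 0.20, beside 0.020 for all genes.

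Hif1a, the gene of the oxygen-regulated HIF subunit (chromosome 12, 73901324 to 73947554, GRCm38), varied little between the arms. On days 0, 7, 14 and 21 it stood at 14.84, 15.28, 14.53 and 14.52 in expanded skin, against 14.87, 14.88, 14.32 and 14.28 in non-expanded skin, 14.20 in anagen and 13.86 in telogen. The arms overlapped, and both lay above the 2 arrays without surgery. Expanded skin differed from non-expanded skin by 0.20 ± 0.21 (log2 difference ± SE, adjusted p = 0.799 in limma). HIF1A is controlled mostly by its breakdown, which a transcript level does not measure.

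Egln3 encodes the prolyl hydroxylase PHD3, which marks HIF1A for destruction and is itself a HIF target (chromosome 12, 54178981 to 54203874). Of the 10 genes it had the clearest separation. On days 0, 7, 14 and 21 it stood at 14.17, 15.01, 14.06 and 14.04 in expanded skin, against 12.33, 12.41, 13.22 and 12.91 in non-expanded skin. The lowest expanded array stood 0.82 above the highest non-expanded array. The mean was 14.32 ± 0.46 in expanded skin, against 12.72 ± 0.42 in non-expanded skin (SD over 4 days, n = 4 each). The difference was 1.60 ± 0.34, a 3.04-fold higher signal, with an adjusted p of 0.318 in limma. It was 2.60 at day 7 and 0.83 at day 14, the widest and the narrowest gap. Skin without surgery, at 12.86 in anagen and 12.05 in telogen, lay within or under the non-expanded range and below every expanded array.

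Slc2a1 encodes GLUT1, the glucose carrier of the epidermis and a HIF target (chromosome 4, 119108745 to 119137330). On days 0, 7, 14 and 21 it stood at 14.50, 15.14, 14.39 and 13.72 in expanded skin, against 13.70, 13.06, 13.57 and 12.92 in non-expanded skin, 11.64 in anagen and 12.72 in telogen. The 3 conditions did not overlap, but the lowest expanded array (day 21) exceeded the highest non-expanded array (day 0) by only 0.022. On matched days expanded skin was higher by 0.80, 2.08, 0.82 and 0.80, so the day 7 gap was the wide one. Its mean was 14.44 ± 0.58 in expanded skin, against 13.31 ± 0.38 in non-expanded skin (SD over 4 days, n = 4 each). The difference was 1.12 ± 0.30, or 2.18-fold (limma, adjusted p = 0.379), and 0.81 without day 7.

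Pdk1 encodes a kinase that inhibits pyruvate dehydrogenase and so holds pyruvate back from oxidation in the mitochondria, and it is another HIF target (chromosome 2, 71873215 to 71903858). On days 0, 7, 14 and 21 it stood at 12.49, 12.29, 12.37 and 11.98 in expanded skin, against 11.27, 11.97, 11.86 and 11.59 in non-expanded skin. The separation was bare, with 0.0055 between the nearest arrays of the arms. Telogen, at 12.09, reached into the expanded range, while anagen was lower than all other arrays at 11.16. The difference between the arms was 0.61 ± 0.25 (limma, adjusted p = 0.556), and on day 0 it was 1.21; without day 0 it was 0.40. Of the 11 marker lists, those mostly on the same side in expanded skin were wound epidermis (6 of 6 tested genes higher, median 2.08), genes of the hair shaft and its inner sheath (12 of 12 higher, 1.47) and immediate early genes (15 of 15 higher, 1.42). Basal epidermis (7 of 8 higher, 0.64) and epidermal differentiation (7 of 8 higher, 0.44) were higher too, and skeletal muscle (14 of 15 lower, -1.68) and adipocytes (8 of 8 lower, -0.34) were lower. Macrophages, neutrophils, endothelium and fibroblasts were mixed. Not every list kept its side on every day. The epidermal differentiation mean was lower in expanded skin at day 0 (14.36 against 15.25) and higher on the other days. The adipocyte mean was higher in expanded skin at day 7 (9.84 against 9.36), near level at day 0 (10.27 against 10.26) and lower on the other days. The wound epidermis mean was lower in expanded skin at day 0 (7.69 against 9.69) and higher on the other days. The hair mean was lower in expanded skin at day 14 (5.58 against 8.26) and higher on the other days, most of all at day 7 (12.72 against 4.66). The part of these cells in the differences of Egln3, Slc2a1 and Pdk1 was not tested.

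The stretches just upstream of these 3 genes show where the letters that HIF proteins bind occur. Each is the 250 bases before the RefSeq transcription start, on GRCm38.p6, read 5′ to 3′ on the gene's own strand. Capitals mark ACGTG or GCGTG, or CACGT or CACGC where the match lies on the opposite strand. The spans are chr12:54203875-54204124, minus strand, for Egln3, chr4:119108495-119108744, plus strand, for Slc2a1, and chr2:71872974-71873223, plus strand, for the first of 2 RefSeq starts of Pdk1.
Egln3: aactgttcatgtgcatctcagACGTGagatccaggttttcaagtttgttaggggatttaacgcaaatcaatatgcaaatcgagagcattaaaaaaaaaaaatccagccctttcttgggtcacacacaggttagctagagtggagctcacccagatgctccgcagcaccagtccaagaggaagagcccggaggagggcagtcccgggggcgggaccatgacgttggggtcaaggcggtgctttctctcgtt
Slc2a1: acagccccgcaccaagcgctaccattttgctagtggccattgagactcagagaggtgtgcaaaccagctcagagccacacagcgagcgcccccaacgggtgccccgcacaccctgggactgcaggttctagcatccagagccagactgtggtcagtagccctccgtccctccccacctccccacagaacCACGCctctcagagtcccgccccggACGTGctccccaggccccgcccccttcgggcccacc
Pdk1: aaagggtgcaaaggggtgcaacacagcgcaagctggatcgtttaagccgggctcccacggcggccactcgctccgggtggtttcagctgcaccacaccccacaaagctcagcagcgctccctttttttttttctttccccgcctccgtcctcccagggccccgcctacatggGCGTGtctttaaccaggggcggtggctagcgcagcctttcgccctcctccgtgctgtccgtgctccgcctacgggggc
Counted from the start, Slc2a1 has GCGTG at -61 on the opposite strand and ACGTG at -36, and Egln3 has ACGTG at -229. This Pdk1 stretch has GCGTG alone, at -78. The second Pdk1 start has no match in its 250 bases.

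Hk2 and Pgk1 stand for the glycolytic enzymes, and neither separated the arms. Hk2, hexokinase 2, traps glucose in the cell as its phosphate (chromosome 6, 82725025 to 82774454). On days 0, 7, 14 and 21 it stood at 10.00, 10.76, 10.14 and 10.93 in expanded skin, against 9.29, 10.80, 10.25 and 11.98 in non-expanded skin, 10.29 in anagen and 10.86 in telogen. Day 21 was the highest day in each arm, and at day 21 expanded skin was 1.05 lower while at day 0 it was 0.71 higher. The mean difference was -0.12 ± 0.32 (limma, adjusted p = 0.928), and it took the opposite sign, 0.18, without day 21.

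Pgk1, phosphoglycerate kinase, forms ATP later in glycolysis (chromosome X, 106187100 to 106203699). Its levels ran alike in both arms: 13.09, 13.41, 12.60 and 12.33 in expanded skin at days 0, 7, 14 and 21, against 12.97, 13.63, 12.47 and 12.70 in non-expanded skin. Day 7 was the highest day in both. The difference was -0.084 ± 0.22 (limma, adjusted p = 0.929), and no day differed by more than 0.37 in size, with expanded skin lower by 0.37 at day 21. Anagen at 11.84 and telogen at 12.18 were below all 8 expander arrays. Pgk1 is a textbook HIF target, and the 250 bases before its RefSeq start (chrX:106186850-106187099, plus strand, GRCm38.p6) hold ACGTG once on each strand, in capitals here.
Pgk1: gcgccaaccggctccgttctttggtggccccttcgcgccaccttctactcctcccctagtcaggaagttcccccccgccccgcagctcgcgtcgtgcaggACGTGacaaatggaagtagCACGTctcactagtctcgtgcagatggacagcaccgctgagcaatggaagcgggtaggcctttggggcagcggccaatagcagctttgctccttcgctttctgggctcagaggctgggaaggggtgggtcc

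Pfkfb3 makes fructose 2,6-bisphosphate, the activator of phosphofructokinase, and is induced by HIF (chromosome 2, 11471430 to 11554071). Its arms crossed in the same direction as those of Hk2, and by more. Expanded skin stood at 11.10, 9.62, 9.57 and 9.74 at days 0, 7, 14 and 21, against 9.68, 10.25, 10.39 and 11.71 in non-expanded skin. The day 0 array thus stood alone in expanded skin and the day 21 array stood highest in non-expanded skin. Expanded skin was 1.41 higher at day 0 and 0.63, 0.82 and 1.97 lower on the later days. A mean over days, -0.50 ± 0.52 (limma, adjusted p = 0.798), does not show this, and was -1.14 without day 0 and -0.012 without day 21. Straight lines over the days gave -1.24 ± 0.62 per 21 days in expanded skin and 1.86 ± 0.62 in non-expanded skin. Their difference of -3.10 ± 0.87 had an unadjusted p of 0.00822 and an adjusted p of 0.999 in limma. Without day 0 the expanded line turned to 0.18 and the difference was -2.01. Pfkfb3 was the 1 gene of the 9 with an unadjusted p under 0.05 for a slope lower in expanded skin, against 0.674% of all genes, and 0 had one for a higher slope (0.542%).

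Bnip3 encodes a mitochondrial outer membrane protein that starts the removal of mitochondria, and it is induced by HIF (chromosome 7, 138890836 to 138909506). On days 0, 7, 14 and 21 it stood at 11.40, 11.09, 11.15 and 11.52 in expanded skin, against 11.42, 12.01, 11.99 and 11.51 in non-expanded skin. The arms met at days 0 and 21, and expanded skin was 0.92 and 0.84 lower at days 7 and 14. The difference was -0.44 ± 0.26 (limma, adjusted p = 0.677), and -0.28 without day 7. Telogen at 12.10 was the highest array and anagen at 8.42 the lowest.

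Adm encodes adrenomedullin, a secreted peptide that widens vessels and is a HIF target (chromosome 7, 110627657 to 110629820). Its levels were lower on later days in both arms. Expanded skin stood at 13.31, 12.40, 11.86 and 10.46 at days 0, 7, 14 and 21, against 12.16, 11.23, 9.63 and 10.33 in non-expanded skin. Expanded skin was higher by 1.15, 1.17, 2.23 and 0.13 on these days, so the arms met at day 21. The difference was 1.17 ± 0.35, or 2.25-fold (limma, adjusted p = 0.457). The straight lines over 21 days were -2.73 ± 0.66 in expanded skin (unadjusted p = 0.00364, adjusted p = 1.00) and -2.12 ± 0.66 in non-expanded skin (unadjusted p = 0.0131, adjusted p = 0.991). The non-expanded line was -1.35 without day 0 and -3.79 without day 21. Adm was the only gene of the 9 with an unadjusted p under 0.05 for a downward line, in each arm, against 1.3% of all genes in expanded skin and 1.64% in non-expanded skin. None of the 9 had an upward line at that threshold in expanded skin, where 1.18% of all genes did. No gene of the array passed either slope test (0 of 13653 in limma, with 339 and 495 at an unadjusted p under 0.05). Tested neutrophil and wound epidermis genes also had downward lines in both arms (6 of 6 each). Their medians were -1.85 and -0.88 in expanded skin and -3.54 and -3.14 in non-expanded skin. In expanded skin, though, both list means were highest at day 7. At days 0, 7, 14 and 21 they were 6.49, 9.23, 7.43 and 5.57 for neutrophils and 7.69, 11.71, 9.89 and 7.17 for wound epidermis. The part of these cells in the Adm lines was not tested. The 2 skins without surgery, at 8.55 in anagen and 8.43 in telogen, were lower than every expander array. The 250 bases before the Adm start (chr7:110627407-110627656, plus strand, GRCm38.p6) hold CACGC, the opposite-strand form of GCGTG, in 2 places.
Adm: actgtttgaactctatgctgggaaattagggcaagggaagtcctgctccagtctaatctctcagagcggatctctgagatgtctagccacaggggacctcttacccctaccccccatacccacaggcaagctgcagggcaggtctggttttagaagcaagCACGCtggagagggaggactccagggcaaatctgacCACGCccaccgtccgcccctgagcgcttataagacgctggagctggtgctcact

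Car9, carbonic anhydrase 9, is a surface enzyme that handles acid and a widely used marker of low oxygen in tumours (chromosome 4, 43507026 to 43513729). It was under the background median on all 10 arrays. Readings were 4.69, 4.95, 4.92 and 5.34 in expanded skin, 4.67, 4.71, 4.59 and 4.70 in non-expanded skin, 4.60 in anagen and 5.29 in telogen. Values at this level have no firm order, so no difference is drawn from them.

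**Figure D2:**
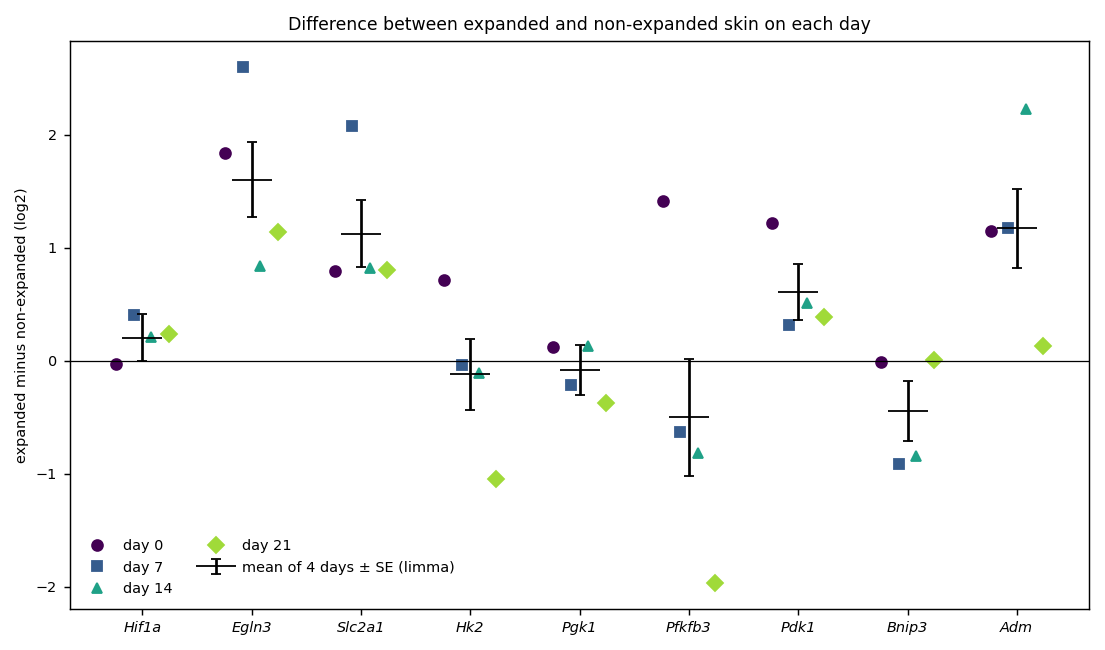
Expanded minus non-expanded log2 signal for the 9 genes above background, with 1 point for each day and a black bar for the limma mean of the 4 days with its SE. All 4 points of Egln3, Slc2a1, Pdk1 and Adm lie above 0, while those of Pfkfb3 run from 1.41 at day 0 to -1.97 at day 21.

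The single days, with 1 array a side and no test, differed in which genes were apart. At day 0, 7 of the 9 genes were higher in expanded skin with a median of 0.80, beside 0.047 for all genes, of which 53% were higher. At days 7, 14 and 21 it was 5, 6 and 6 of the 9, with medians of 0.32, 0.21 and 0.13, beside -0.058, 0.043 and 0.051 for all genes. Of all genes, 46.3%, 52.3% and 54% were higher on those days. At day 0, Egln3, Pfkfb3, Pdk1 and Adm were at least 2-fold higher, against 9.49% of all genes. None was 2-fold lower (6.18% of all genes). At day 7, Egln3, Slc2a1 and Adm were at least 2-fold higher (8.45% of all genes), and none 2-fold lower (9.43%). At day 14 Adm alone was 2-fold higher (11.4%), and none lower (8.85%). At day 21, Egln3 was at least 2-fold higher (6.69%), and Hk2 and Pfkfb3 were at least 2-fold lower (6.13%). Days are counted from full injection of the expander, so day 0 is not a time before enlargement.

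Over the days within non-expanded skin, Hk2 and Pfkfb3 had upward lines, of 2.25 ± 0.68 and 1.86 ± 0.62 per 21 days (unadjusted p = 0.0113 and 0.0178, both with an adjusted p of 0.991 in limma). Without day 21 they were 1.44 and 1.06. These 2 of 9 genes compare with 1.98% of all genes at that unadjusted threshold. The mean of the 15 skeletal muscle genes was also highest at day 21 in non-expanded skin, at 17.03, and stood at 16.02 at day 0, with 12 of 15 lines upward. Adipocyte genes (7 of 8) had upward lines there too, and neutrophil (6 of 6), wound epidermis (6 of 6) and epidermal differentiation genes (8 of 8) downward ones. Hair genes also had upward lines (12 of 12), but these rest on the day 14 array. Their mean was 4.73, 4.66, 8.26 and 4.88 at days 0, 7, 14 and 21, under the background median except at day 14. The part of these cells in the lines was not tested.

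Against skin without surgery, both kinds of expander skin had higher Adm, Slc2a1, Pgk1 and Hif1a. A second limma fit set each arm against the anagen and telogen arrays together, on all 10 arrays, so both comparisons share the same 2 arrays without surgery. All 4 of these genes had all 8 expander arrays above both arrays without surgery, against 8.1% of all genes, and none of the 9 had all 8 below (4.15%). Adm stood 3.52 ± 0.79 higher in expanded skin (11.4-fold, adjusted p = 0.0717) and 2.35 ± 0.79 higher in non-expanded skin (5.09-fold, adjusted p = 0.205). Slc2a1 stood 2.26 ± 0.44 higher in expanded skin (4.78-fold, adjusted p = 0.0604) and 1.13 ± 0.44 higher in non-expanded skin (adjusted p = 0.263). None of the 9 passed at 0.05, where 0.447% of all genes were called higher and 0.0293% lower in expanded skin and 0 of 13653 in non-expanded skin (2144 at an unadjusted p under 0.05). At an unadjusted p under 0.05, 4 of the 9 were higher in expanded skin (Adm, Egln3, Hif1a and Slc2a1, 10.7% of all genes) and 0 lower (5.69%), and 3 were higher in non-expanded skin (Adm, Pgk1 and Slc2a1, 9.42%) and 0 lower (6.28%). Slc2a1 and Adm passed in expanded skin when its day 21 array was left out (adjusted p = 0.0436 for both in limma). The share of all genes called in that fit is not given here, so these passes cannot be set against it.

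Egln3 differed from skin without surgery by 1.87 ± 0.40 in expanded skin (3.65-fold, adjusted p = 0.0657 in limma), and by 0.27 ± 0.40 in non-expanded skin (adjusted p = 0.794). The gap between these is the expansion effect given above. All 4 expanded arrays were above both arrays without surgery for Egln3, Adm, Hif1a, Pgk1 and Slc2a1, against 14% of all genes, and 4 of these, all but Egln3, also had every non-expanded array above them, against 11.5% of all genes. None of the 9 had all 4 expanded (8.59%) or all 4 non-expanded arrays (7.21%) below both. Pgk1 differed by 0.85 ± 0.40 in expanded and 0.93 ± 0.40 in non-expanded skin (adjusted p = 0.325 and 0.298), and Hif1a by 0.76 ± 0.33 and 0.56 ± 0.33 (adjusted p = 0.282 and 0.437). Pdk1 differed by 0.66 ± 0.33 in expanded skin (0.19 against telogen alone, 1.12 against anagen alone) and 0.050 ± 0.33 in non-expanded skin. Hk2 was near 0 in both, at -0.12 ± 0.62 and 0.0032 ± 0.62. Macrophage genes were higher too, 9 of 9 in each arm, with summed levels above both arrays without surgery. Tested neutrophil (6 of 6), endothelial (8 of 8) and fibroblast genes (5 of 5) were also higher in each arm, as were 14 of 15 immediate early genes, with medians of 3.00 in expanded and 1.36 in non-expanded skin. Hair shaft and inner root sheath genes were lower in each arm (12 of 12) than the mean of anagen and telogen. The medians were -4.47 in expanded and -6.18 in non-expanded skin, but their size rests on the anagen array. The hair list mean was 16.87 in anagen and 6.75 in telogen. Expanded day 7 (12.72) and non-expanded day 14 (8.26) were above telogen. The other days were below it, at 4.88 to 6.45 in expanded and 4.66 to 4.88 in non-expanded skin, partly under the background median. Adipocyte genes were lower too, 8 of 8 in expanded and 7 of 8 in non-expanded skin. Skeletal muscle genes were higher in non-expanded skin (14 of 15) than the mean of anagen and telogen, but this rests on the anagen array. Their list mean was 16.02 to 17.03 in non-expanded skin, above anagen at 13.31 and below telogen at 17.14. The part of these cells in the differences was not tested.

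Bnip3 shows how much the pair without surgery weighs. Its differences of 1.03 ± 0.76 in expanded and 1.47 ± 0.76 in non-expanded skin (adjusted p = 0.556 and 0.376 in limma) rest on 2 arrays 3.68 apart. Against anagen alone, in a fit without the telogen array, Bnip3 was higher by 2.87 in expanded skin (adjusted p = 0.00195) and by 3.31 in non-expanded skin (adjusted p = 0.000792). Against telogen alone it was lower by 0.81 and 0.37, with adjusted p = 0.212 and 0.673. Slc2a1 also passed against anagen alone, at 2.79 in expanded skin (adjusted p = 0.00927) and 1.67 in non-expanded skin (adjusted p = 0.0474). Against telogen alone Slc2a1 differed by 1.72 and 0.59, with adjusted p = 0.107 and 0.632. In these fits the lone array is assumed to vary like the other groups, and against anagen alone 1850 genes were called in expanded and 2645 in non-expanded skin.

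**Figure D3:**
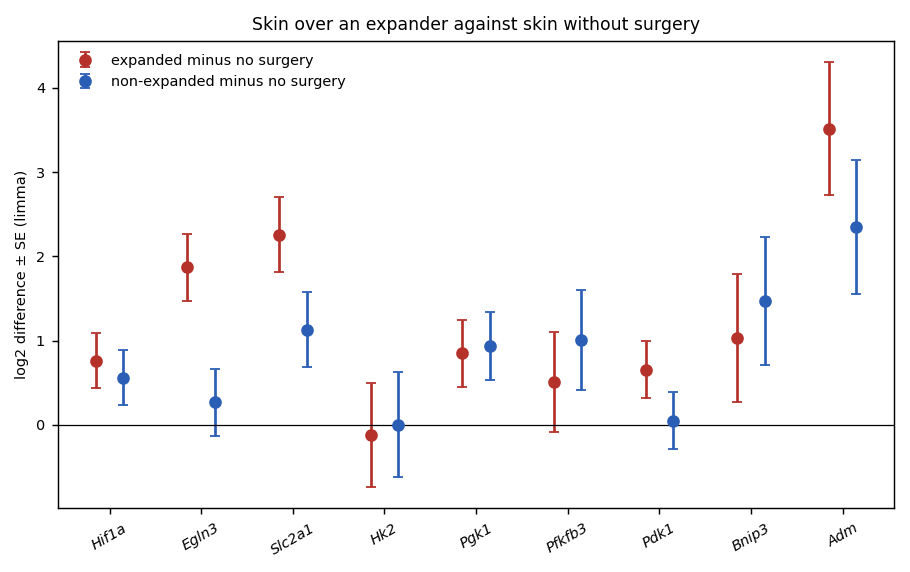
Log2 difference from skin without surgery (anagen and telogen together), with its SE from limma, for expanded skin on the left and non-expanded skin on the right of each gene. Adm and Slc2a1 lie highest in expanded skin, at 3.52 and 2.26, and Egln3 is at 1.87 in expanded and 0.27 in non-expanded skin.

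Between the hair stages, with 1 array each and no test, Bnip3 stood out. It was 3.68 lower in anagen than in telogen, a level 12.8-fold higher in telogen. Slc2a1 was lower in anagen by 1.08, and these were the 2 of 9 genes at least 2-fold lower, against 20.4% of all genes. None was 2-fold higher, where 23.5% of all genes were. Egln3 was 0.81 higher in anagen, Hif1a 0.34 and Adm 0.13. Pdk1, Pfkfb3, Hk2 and Pgk1 were lower in anagen by 0.92, 0.79, 0.57 and 0.34. Of the 9 genes, 6 were lower in anagen, where 50.4% of all genes were, with a median of -0.57, beside -0.010 for all genes. Skeletal muscle genes were lower in anagen too (15 of 15), as were fibroblast (5 of 5), endothelial (7 of 8) and macrophage genes (6 of 9, median -1.40). Tested neutrophil genes were lower in 5 of 6 cases, but their list mean was under background in both stages (4.68 in anagen, 4.85 in telogen). Hair (12 of 12) and wound epidermis genes (6 of 6) were higher. The part of these cells in the differences was not tested.

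The 250 bases upstream of Bnip3 (chr7:138909507-138909756, minus strand, GRCm38.p6) held the most matches of the 10 genes, 5 in all, of which the pair in CACGTG is 1 palindrome read on both strands.
Bnip3: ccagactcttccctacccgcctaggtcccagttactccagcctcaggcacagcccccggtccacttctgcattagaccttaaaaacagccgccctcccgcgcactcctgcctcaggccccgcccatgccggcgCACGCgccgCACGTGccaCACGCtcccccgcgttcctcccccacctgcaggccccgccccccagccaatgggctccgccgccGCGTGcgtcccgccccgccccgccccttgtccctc
Among the 10 genes, 12 RefSeq starts were listed. Of these, 11 had ACGTG or GCGTG on either strand within 250 bases upstream, and 9 had ACGTG. Of all 32851 RefSeq mouse promoters in the table, 38.6% and 16.6% did. The shares vary with base composition, and among the 9178 promoters with at least 60% G and C the shares were 63.8% and 23%. A match is a run of letters, and no binding was measured here.

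**Figure D4:**
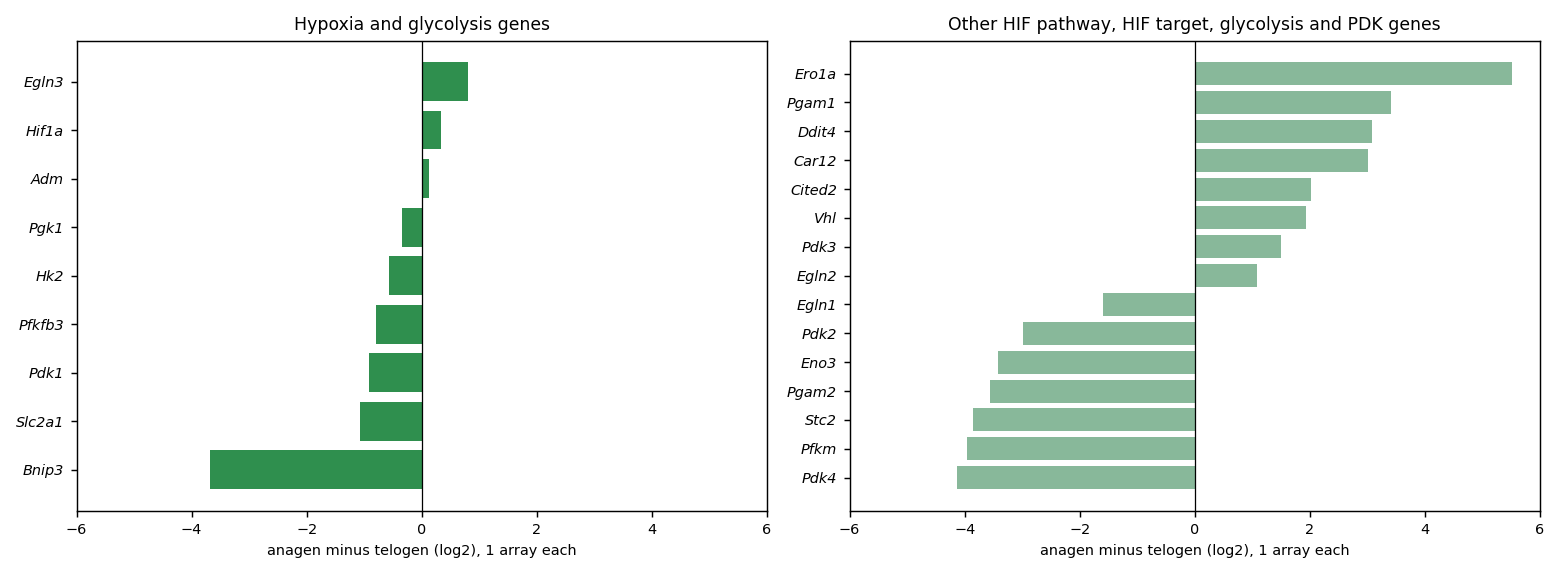
Anagen minus telogen log2 difference, 1 array each with no replicates, for the 9 genes (left) and for other genes of the HIF pathway, HIF target, glycolysis and PDK lists (right), with bars starting at 0. Bnip3 at -3.68 is the longest bar on the left; on the right Ero1a reaches 5.51 and Pdk4 -4.14.

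The wider pathway was read from 4 lists, with the 10 genes left out. Among 18 other genes of glucose transport and glycolysis, 0 passed in the expansion effect in limma; 9 were higher and 9 lower, with a median of -0.16. The smallest p-values were those of the muscle forms of 2 enzymes. Pgam2 (phosphoglycerate mutase of muscle) was lower in expanded skin by 2.61 ± 0.52 (adjusted p = 0.303) and Eno3 (enolase of muscle) by 2.75 ± 0.57 (adjusted p = 0.318), both on all 4 days. Tpi1, triose phosphate isomerase, was lower by 0.73 ± 0.23 and Aldoc, an aldolase, higher by 0.70 ± 0.24 (adjusted p = 0.461 and 0.504), each in the same direction on all 4 days.

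The muscle forms also set the hair stages apart: Pfkm, the muscle phosphofructokinase, was 3.96 lower in anagen than in telogen, Pgam2 3.56 and Eno3 3.42, while Pgam1, the form of most other tissues, was 3.42 higher. Of the 4 other PFKFB and PDK genes on the array, 0 passed. Pdk2 was lower in expanded skin by 1.83 ± 0.35 (adjusted p = 0.303) and Pdk4, which rises in fasting muscle, by 1.62 ± 0.44 (adjusted p = 0.397). Pfkfb4 and Pdk3 differed by -0.080 ± 0.30 and 0.020 ± 0.46. In anagen Pdk4 was 4.14 and Pdk2 2.99 lower than in telogen, and Pdk3 1.50 higher. Skeletal muscle genes, 15 measured with none under background throughout, were lower on average in expanded skin in 14 cases, and their part was not tested.

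**Figure D5:**
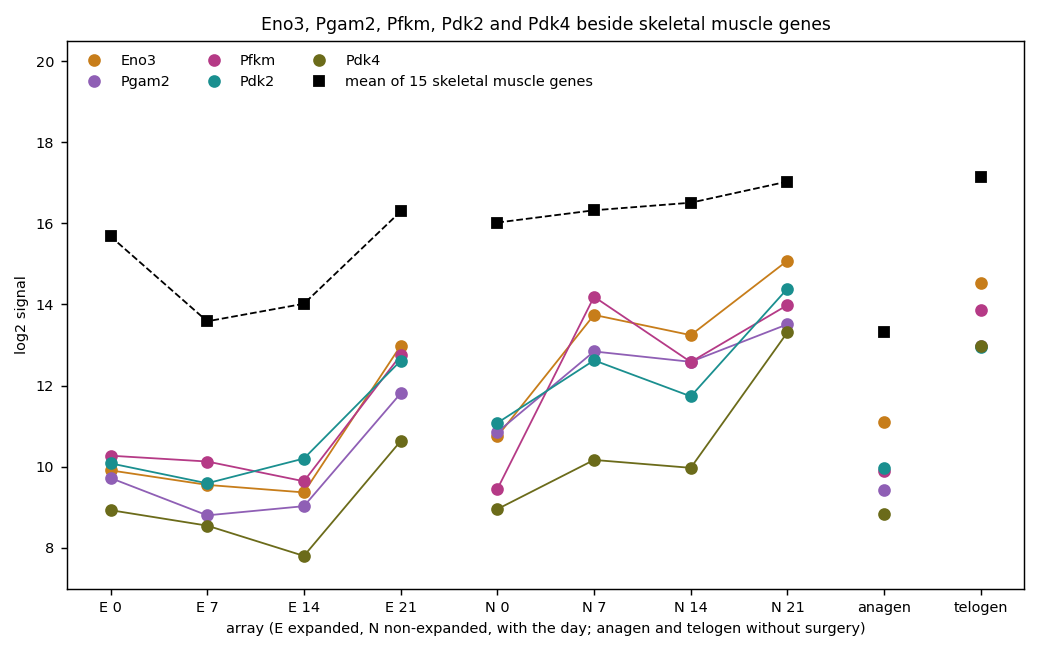
Log2 signal of Eno3, Pgam2, Pfkm, Pdk2 and Pdk4 on each array (circles), with the mean of 15 skeletal muscle genes (black squares); lines join the days of 1 arm, and the Pgam2, Pdk2 and Pdk4 points coincide in telogen. The muscle mean ran from 13.59 to 16.29 in expanded and from 16.02 to 17.03 in non-expanded skin, and stood at 13.31 in anagen and 17.14 in telogen.

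Components of the HIF pathway, 14 besides Hif1a and Egln3, had 0 passing in the expansion effect, with 8 higher, 6 lower and a median of 0.0046. Cited2, a HIF-induced rival for the coactivators of HIF, differed by 0.48 ± 0.29, Epas1, which encodes the related subunit HIF-2 alpha, by -0.46 ± 0.38, Vhl, of the ligase that destroys HIF, by 0.28 ± 0.24 and the coactivator Ep300 by -0.31 ± 0.27 (adjusted p between 0.679 and 0.762). These values moved when a day was left out, over 0.34 to 0.78 for Cited2, -0.92 to -0.23 for Epas1, 0.098 to 0.38 for Vhl and -0.48 to -0.082 for Ep300. Egln1, the main prolyl hydroxylase, differed by 0.20 ± 0.20 and Egln2 by 0.13 ± 0.43, beside the 1.60 of Egln3. In anagen Cited2 was 2.02, Vhl 1.94 and Egln2 1.08 higher than in telogen, while Egln1 was 1.59 lower.

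In expanded skin against skin without surgery, Lox and Bhlhe40 rose, 2 of 23 other HIF target genes tested, where 0.447% of all genes were called higher and 0.0293% lower. The other 3 pathway lists held 0 calls. Of the 23, 17 were higher and 6 lower, with a median of 0.50, beside 0.0099 for all genes. Lox, a collagen cross-linking enzyme, stood at 17.47, 16.96, 17.65 and 16.91 on the 4 days in expanded skin, against 12.26 in anagen and 13.23 in telogen. That difference was 4.51 ± 0.43, or 22.7-fold, with an adjusted p of 0.00635, the smallest p of all genes in that limma fit. The normalization of that scale is not given, so the fold holds on the deposited scale. Bhlhe40, a transcription factor, read 14.22, 13.84, 14.11 and 14.29, against 11.53 and 12.27, a difference of 2.21 ± 0.31 or 4.63-fold (adjusted p = 0.0253). Lox passed in each fit that left out an array, while Bhlhe40 did not without expanded day 0, expanded day 14 or anagen (adjusted p = 0.0773, 0.0832 and 0.0552). In non-expanded skin the same 2 genes differed by 2.86 ± 0.43 and 1.51 ± 0.31, with adjusted p = 0.0646 and 0.0754. There Lox passed without non-expanded day 14 (adjusted p = 0.0386), and both passed against anagen alone (adjusted p = 0.00321 and 0.00682).

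Between the arms, 0 of these 23 passed, with 14 higher, 9 lower and a median of 0.080. Lox was higher in expanded skin by 1.65 ± 0.30, Bhlhe40 by 0.70 ± 0.22 and Ero1a, an oxidase of protein folding, by 0.67 ± 0.24 (adjusted p = 0.303, 0.467 and 0.526), each on all 4 days. Tpi1, which is on this list as well as the glycolysis list, was lower by 0.73 ± 0.23 (limma, adjusted p = 0.461), also on all 4 days. In anagen Ero1a was 5.51, Ddit4, an inhibitor of growth signalling, 3.09 and Car12, a carbonic anhydrase related to Car9, 3.02 higher than in telogen, and Stc2, a secreted glycoprotein, 3.85 lower. Bnip3 and Ero1a, both HIF targets, thus differed in opposite directions between the hair stages.

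For each of the 10 genes, the 2 closest profiles over all 10 arrays were looked up among 11581 other genes whose level spanned at least 1 log2 unit. With so many candidates and 10 arrays that share few conditions, high values of Pearson r are a description only. Adm ran closest to Cpxm1 (r = 0.98), a gene of the carboxypeptidase family, and to Ptpn18 (0.96), a phosphatase. Bnip3 ran closest to Clec2d and Nfatc1 (both 0.97), Slc2a1 to Ccndbp1 and Klk11 (both 0.96), and Pgk1 to Cd300c2 (0.96) and Pik3ap1 (0.95). Hif1a was nearest Limd2 and Cd2 (both 0.95), Pdk1 nearest Tll1 (0.94) and Grap (0.90). Egln3 was nearest Ecrg4 (0.93) and Tnnt2 (0.90), a troponin. Hk2 was nearest Tle5 (0.91) and Cd226 (0.89), Pfkfb3 nearest Dipk1b (0.91) and Rubcnl (0.90). The pair for Car9, Mill2 and Slc22a13 (both 0.90), follows values under background.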

How the data were processed

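Per the labels' protocols, total RNA from whole skin (Qiagen RNeasy) was biotin-labelled with an Affymetrix WT PLUS kit, 1 array per sample, and the submitters' processing notes name mm10. The authors deposited 1 value per probe set, used here as given and read as log2 signals from their range, 1.87 to 19.88. On at least 1 array, 586 probe sets read above 16. Background correction, summarisation, normalization and log base are not given in the sources used here.

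Of 28846 probe sets, 19572 carried 1 symbol and named 19505 genes; the highest-mean probe set stood for a gene. Genes under the 30th percentile of mean level (4.86) were left out, which left 13653. The 10 genes and all gene lists were chosen with earlier results of these data known.

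Tests were two-sided, with limma 3.58.1 (lmFit, eBayes) in R 4.3.3 and Benjamini-Hochberg adjustment at 0.05. Arms were compared with the day as a block (3 residual degrees of freedom), slopes over the days within arms (4), and arms with skin without surgery in 3 groups (7). The smallest p of an exact permutation test over 4 pairs is 0.125. The labels give both arms the same 4 time points, and this pairs the arrays; same-day deviations from the arm means correlated across genes at -0.13, -0.17, -0.10 and 0.36. With 1 array per arm and day, the number of arrays sets the precision. Code was tested on simulated data. Named genes are the 10, up to 4 per list with the smallest p between arms, up to 4 with the largest hair-stage difference, and the 2 nearest profiles of each of the 10. Promoters are from RefSeq (GRCm38.p6). Alternatives tried were the block, leaving out arrays, quantile normalization, other level filters, eBayes with trend and mean probe sets.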

Additional observations from a re-analysis of the deposited data

Results flagged for a closer look

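Of 20 sets of 4 arrays (10 genes in each arm), 2 held an array far from the other 3 by Dixon's test; chance gives about 1 in 20. Pfkfb3 at day 0 in expanded skin read 11.10, while the other expanded arrays read 9.57 to 9.74. Egln3 at day 7 in expanded skin read 15.01, while the others read 14.04 to 14.17. That day 7 array is also the expanded array with high hair genes (list mean 12.72, against 4.88 to 6.45 on the other expanded arrays). The days of an arm are not replicates of each other, and no explanation was tested.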

How the results depend on the processing

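No alternative moved any of the 9 genes past the threshold between the arms (90 values, 88 in the same direction, lowest adjusted p = 0.198), and none in the slopes. Without the replicate block, 2 genes of the array passed between the arms and no gene of the 9; leaving out a day gave 0 to 1. Leaving out an array gave 0 to 2645 calls in non-expanded and 5 to 1850 in expanded skin against no surgery, and 33 in expanded skin with no filter on low values. Non-expanded skin had 112 calls without its day 14 array. Expanded skin had 8, 43 and 5 without its day 0, 7 and 14 arrays.

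Signs that turned when arrays were left out had these ranges. Between arms they were -0.40 to 0.18 for Hk2 and -0.16 to 0.012 for Pgk1. For slopes in expanded skin they were -2.30 to 0.18 for Pfkfb3 and -0.39 to 0.63 for Bnip3, and in non-expanded skin -0.57 to 0.88 for Pdk1 and -0.75 to 0.85 for Bnip3. Slope differences ran from -1.92 to 0.040 for Slc2a1, -0.46 to 0.0066 for Pgk1, -1.06 to 0.096 for Pdk1, -1.24 to 1.38 for Bnip3, -1.57 to 1.62 for Adm and -0.25 to 0.36 for Hif1a. Against no surgery, non-expanded values ran from -0.46 to 0.43 for Hk2, -0.41 to 0.51 for Pdk1, -0.37 to 3.31 for Bnip3 and -0.14 to 0.67 for Egln3, and expanded values from -0.40 to 0.16 for Hk2 and -0.81 to 2.87 for Bnip3. Of the other pathway genes named between the arms, 17 in all, none passed in any of 170 values; Egln2 ran from -0.17 to 0.64, Pdk3 from -0.54 to 0.43 and Pfkfb4 from -0.26 to 0.23 when a day was left out. With quantile normalization Pdk3 was -0.044, the Bnip3 slope difference was -0.013, and Hk2 in non-expanded skin against no surgery was -0.055. With the block in the slope difference, 0 genes passed, as without it. For these turns the cause was not tested.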
